A study of Mus musculus with 107 samples.

Results

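The cytosolic ribosomal protein genes encode the protein parts of the ribosome that translates nuclear mRNA in the cytoplasm. They were chosen by name as the RefSeq mouse protein-coding symbols that begin with Rpl or Rps and a number, with Rplp0, Rplp1, Rplp2, Rpsa, Rpl22l1 and Rps27l, and no processed copies. The rule found 78 of the 27179 counted genes, 47 of the large and 31 of the small subunit. All 78 had counts above 0 in every library, and 77 had at least 10 counts in each.

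The 40S subunit reads the mRNA and the 60S subunit joins the amino acids, and a cell that grows makes both in step. Mammalian mRNAs of these genes open with a run of pyrimidines, the terminal oligopyrimidine (TOP) tract, through which mTOR signalling and LARP1 set how many ribosomes engage them. In the nervous system, levels of these mRNAs are known to fall as stem and progenitor cells leave the cell cycle and mature.

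RNA bound to HA-tagged ribosomes (RiboTag) was sequenced, so a level here is the share of ribosome-bound mRNA that a gene took up, not its total mRNA. RiboTag replaces the end of *Rpl22*, a gene of the large subunit, with a tagged version after Cre excision. The tagged subunit gene *Rpl22* and its paralog *Rpl22l1* are therefore described apart from the other 76 members. All cells and mice had a C57BL/6 background and carried the RiboTag allele in the cells profiled. A single female mouse embryonic stem cell (ESC) line, in which the allele was already recombined, gave all cultures and grafts, so replicates do not sample other lines. Neural progenitor cells (NPC) were expanded in EGF and FGF at 100 ng/ml and taken at passage 5, 15 and 30 (NPC P5, P15 and P30, n = 4 each). They were also taken at passage 15 of another 2 derivations (NPC P15 D2, n = 6, and D3, n = 4). NPC were differentiated for 4 days in EGF and FGF lowered to 1 ng/ml (SPONT), with CNTF or IGF-1 at 100 ng/ml, with fetal bovine serum (FBS) at 1, 5, 10 or 20%, or with CNTF and 5% FBS (n = 4 each). NPC were passed through a pipette in medium, in hydrogel, or after 4 hours in hydrogel (n = 5 each). Host spinal cord astrocytes came from 73.12 Gfap-Cre-RiboTag mice, in which Gfap-Cre decides which cells carry the tag, without injury (n = 9) or at 14 days after crush spinal cord injury (SCI, n = 5). NPC grafts were recovered at 14 days from uninjured cord, SCI and double crush SCI, and at 5 days from SCI (n = 5 each). The study used wildtype and transgenic mice, and its methods do not state the genotype of the hosts of these grafts. Mice were 8 weeks to 4 months old at surgery, and grafts into SCI were placed 2 days after the crush. The study describes its culture replicates as independent, but the labels tie no library to a cell stock, and p-values measure the spread between these libraries. The labels also do not say which NPC culture the differentiated and the pipetted cells came from. NPC P15 is the reference for both here, and other NPC references are given beside the results they turn.

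Depth ran from 12286240 to 147764968 counts, with a median of 71051778. The 11 libraries of NPC P15 D2 and 5-day grafts were single-read and held at most 18085106 counts, and the other 96 were paired with both mates counted. Labelled cell types had their defining markers: 6 ESC markers summed to 3269–3341 CPM (counts scaled to the same library total) in ESC and to at most 21.7 CPM in NPC, and 8 astrocyte markers to 44708–52181 CPM in healthy host astrocytes. Libraries from tissue also held markers of other cell types. The study recovered minimal RNA from SCI tissue that held no tagged cells. Which cells gave these markers was not tested. In healthy host astrocytes 10 myeloid markers summed to 17.7–36.6 CPM, against 310–2340 CPM after SCI and 211–1556 CPM in grafts of uninjured cord. The 8 oligodendroglial markers reached 22978–38473 CPM in host astrocytes after SCI. In these bulk samples, fewer cells of a type and less RNA per cell cannot be told apart.

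The start sites of the paralog pairs and of *Rplp2*, *Rps6* and *Rpl7a* are shown because the TOP tract lies there. Each is a window of 15 bases before and 15 from a start site in the RefSeq promoter table (GRCm38.p6), with its longest run of C and T in capitals. This longest run differed in length between *Rpl22* and *Rpl22l1*. It lies wholly before the start in *Rpl22* and *Rps27l*, so its length is not that of a TOP tract. A gene can have further start sites, and where the table gave more than 1, as for *Rpl22* and *Rps27l*, the one with the longest run is shown.
Rpl22: cgctgCTTCTggaatgttccagctcccact
Rpl22l1: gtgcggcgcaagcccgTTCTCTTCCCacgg
Rps27: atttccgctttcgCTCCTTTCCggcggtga
Rps27l: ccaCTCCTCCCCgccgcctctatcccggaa
Rplp2: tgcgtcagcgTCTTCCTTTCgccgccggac
Rps6: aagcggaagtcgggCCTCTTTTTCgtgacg
Rpl7a: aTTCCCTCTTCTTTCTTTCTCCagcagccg

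They lie at chr4:152324421-152324450 on the plus strand for *Rpl22*, chr3:28805493-28805522 on the plus strand for *Rpl22l1*, chr3:90213634-90213663 on the minus strand for *Rps27*, chr9:66946071-66946100 on the plus strand for *Rps27l*, chr7:141447636-141447665 on the plus strand for *Rplp2*, chr4:86857353-86857382 on the minus strand for *Rps6* and chr2:26910792-26910821 on the plus strand for *Rpl7a*. The longest run was 5 bases in *Rpl22*, 10 in *Rpl22l1*, 9 in both *Rps27* and *Rps27l*, 10 in *Rplp2* and *Rps6* and 21 in *Rpl7a*. The run of *Rpl7a* was the longest of any member with an entry. RefSeq promoter entries were found for 58 members. A run of at least 8 C or T on the sense strand within 20 bases of any start in the table was held by 30 of them (51.7%), against 4965 of all 27025 genes with an entry (18.4%) and 13 of 69 mitochondrial ribosomal protein genes (18.8%). On the other strand 5 members held one (8.6%), against 20.2% of all genes. The motif CCGGAAGT, searched on both strands of the whole entry, was found in 12 members (20.7%), in 12 mitochondrial ribosomal protein genes (17.4%) and in 4.31% of all genes. A match describes the letters of the window only.

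The summed level of the 76 members differed several-fold between cell states (plot of the summed level by library). It was highest in ESC, at 5.87, 5.23, 5.48 and 5.43% of all counts in genes. NPC P15 D3 came next with 3.79, 4.14, 5.06 and 4.93%, followed by NPC P5 with 3.18, 3.13, 3.19 and 3.11%. NPC P15, NPC P30 and the pipetted NPC held 2.34–2.95%. The single-read NPC P15 D2 held 1.33–1.56%, with a median of 1.47%. Medians of the differentiated cultures ran from 2.52% with IGF-1, close to the 2.47% of NPC P30, over 1.86% in SPONT to 1.17% with CNTF and 5% FBS. On total counts, healthy host astrocytes had the lowest median of the 23 groups, with 0.626% in the lowest, 0.687% in the median and 0.849% in the highest library. Grafts in uninjured cord were next, at 0.842, 0.974, 0.793, 0.700 and 0.627%. After TMM scaling the order of these groups turned, with medians of 0.689% in grafts in uninjured cord and 0.923% in healthy host astrocytes. Host astrocytes after SCI held 1.02, 1.24, 0.958, 0.877 and 1.59%. Grafts in SCI held 1.15, 1.25, 1.22, 1.58 and 0.761%, grafts in double crush SCI 1.14, 1.04, 1.06, 1.08 and 0.581%, and 5-day grafts 1.58, 1.15, 1.32, 1.10 and 0.982%. When groups were put in the order of their medians, 18 of 22 neighbouring pairs overlapped. The 4 pairs that did not were CNTF below NPC P30, pipetted NPC after 4 hours in hydrogel below NPC P5, NPC P5 below D3, and D3 below ESC. The ratio of the ESC to the host median was 7.94 on total counts and 5.77 after TMM scaling.

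**Figure D1:**
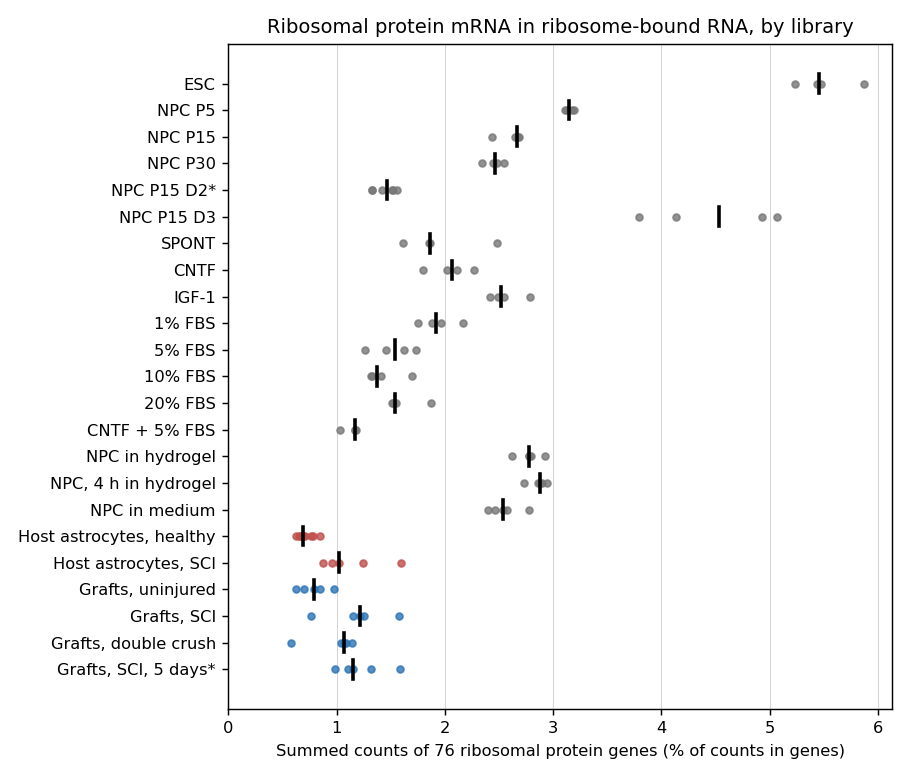
Summed counts of the 76 members, as a percentage of all counts in genes, for each library (points) of the 23 groups (rows), with the median of each group as a bar; asterisks mark the single-read groups. ESC libraries lie between 5.23 and 5.87% and healthy host astrocytes between 0.626 and 0.849%.

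The balance of the subunits varied little beside the summed level. Large subunit members, in which *Rpl22* and *Rpl22l1* were not counted, took up 1.45 times the counts of small subunit members in both ESC and NPC P5 (medians), 1.60 times in NPC P15 and 1.75 times in grafts of uninjured cord, with libraries between 1.38 and 1.81 over all groups. Within the summed counts, the share of single members varied unequally. *Rpl19* and *Rpl10a* were among the 3 steadiest, with ranges of 0.39 and 0.40 on the log2 scale over the 23 group means. *Rpl39*, which lines the exit tunnel, had the widest range at 4.87, followed by *Rpl21* at 3.82, *Rplp1* at 2.90, *Rpl41* at 2.73 and *Rps29* at 2.06. Each of these 5 had one end of its range in a single-read group. Over the 21 paired-read groups, an order set after the data were seen, the widest were *Rpl39* at 2.90, *Rpl22* at 1.97, *Rpl17* at 1.88, *Rps27l* at 1.79 and *Rpl15* at 1.56. Read type and condition cannot be told apart in the single-read groups. Counts of reads that also match processed copies or near-identical genes depend on read length and pairing, and such members are uncertain throughout. *Rps27rt*, a near-identical copy of *Rps27*, held 8.88–80.7 CPM in paired and 0–0.282 CPM in single-read libraries.

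**Figure D2:**
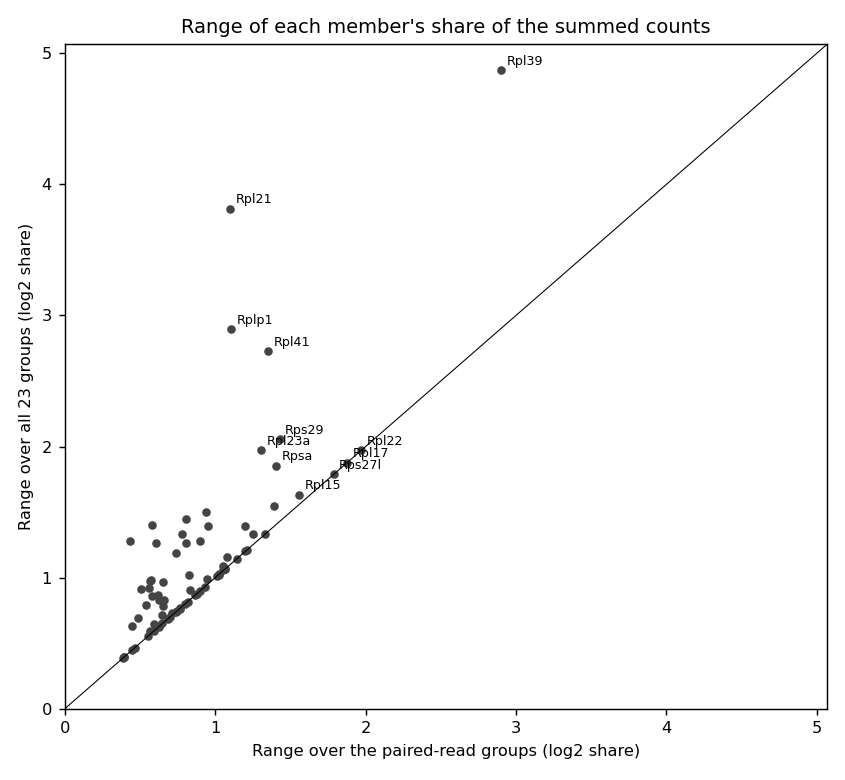
Range of each member's log2 share of the summed counts over the 21 paired-read groups (x axis) and over all 23 groups (y axis), 1 point per member; the line marks equal ranges. Rpl39, Rpl21, Rplp1 and Rpl41 lie far above the line, while Rpl22, Rpl17 and Rps27l lie on it.

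Per kilobase of exon, the mean level over groups was highest for *Rplp1* at 1110 FPKM, *Rps15* at 924 FPKM and *Rpl8* at 775 FPKM, and lowest for *Rpl39* at 2.83 FPKM, *Rpl17* at 7.77 FPKM and *Rps15a* at 21.0 FPKM. *Rplp1* is an acidic protein of the stalk that recruits elongation factors. The low levels of *Rpl39* and *Rpl17* are uncertain, since reads that also match copies elsewhere may not have been counted. These ranks also depend on length, taken as all annotated exons of a gene joined. It was 6270 bases for *Rps15a*, which had a mean of 131 CPM, 499 for *Rplp1* and 630 for *Rps15*. The lowest count of any member in a library was 2, for *Rpl39* in a graft.

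*Rpl22*, which binds RNA and carries the tag, had another pattern than the rest of the subunit (plot of *Rpl22* and *Rpl22l1*). Its level was highest in ESC at 221.9, 192.3, 205.2 and 217.9 CPM. NPC P15 D3 held 163–204 CPM and all other cultures 64.6–128 CPM. Grafts in uninjured cord held 55.3, 66.0, 50.0, 66.4 and 67.4 CPM. Healthy host astrocytes held 82.6 CPM in the lowest, 104 CPM in the median and 116 CPM in the highest library, close to the range of NPC P15, which was 94.1–101 CPM. Set against the summed counts of the other 76 members, *Rpl22* amounted to 0.378, 0.368, 0.375 and 0.401% in ESC and 0.391, 0.379, 0.369 and 0.355% in NPC P15. In grafts of uninjured cord it was 0.658, 0.677, 0.631, 0.948 and 1.08%. In host astrocytes after SCI it was 1.27, 1.13, 1.16, 1.31 and 1.15%, and in healthy host astrocytes 1.26–1.55% with a median of 1.39%. Host libraries lay above every other library by this measure. Gfap-Cre recombined the allele in the host astrocytes, whereas cultures and grafts derive from a line recombined before. The part of this difference in the result was not tested.

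*Rpl22l1*, the paralog that can take the place of Rpl22, was lower than *Rpl22* by count in most groups. There were 0.477, 0.608, 0.494 and 0.460 counts of it per *Rpl22* count in ESC. The ratio was 0.817, 0.919, 1.00 and 1.09 in NPC P15 D3, 1.10, 1.11, 1.30 and 1.21 with IGF-1, and 0.948, 0.993, 1.18 and 1.07 in 1% FBS. In healthy host astrocytes it was 0.195–0.338, in host astrocytes after SCI 0.204–0.293 and in grafts of uninjured cord 0.201–0.396. By CPM, *Rpl22l1* was highest in NPC P15 D3 at 133, 159, 205 and 222 CPM and lowest in grafts of uninjured cord at 15.1, 17.4, 19.8, 13.4 and 15.6 CPM. Over the 23 group means of log2(CPM + 1), the members most like *Rpl22* were *Rps20* (r = 0.82), *Rps21* (r = 0.79) and *Rpl11* (r = 0.78), and those most like *Rpl22l1* were *Rpl35a* (r = 0.96), *Rpl36* (r = 0.95) and *Rps21* (r = 0.93). Over the 21 paired-read groups alone the order for *Rpl22* was *Rpl11* (r = 0.87), *Rpl21* (r = 0.84, against 0.35 over all groups) and *Rps20* (r = 0.82). For *Rpl22l1*, *Rpl35a* and *Rpl36* stayed first. These groups share cell line and scaling, and the r describe them only.

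**Figure D3:**
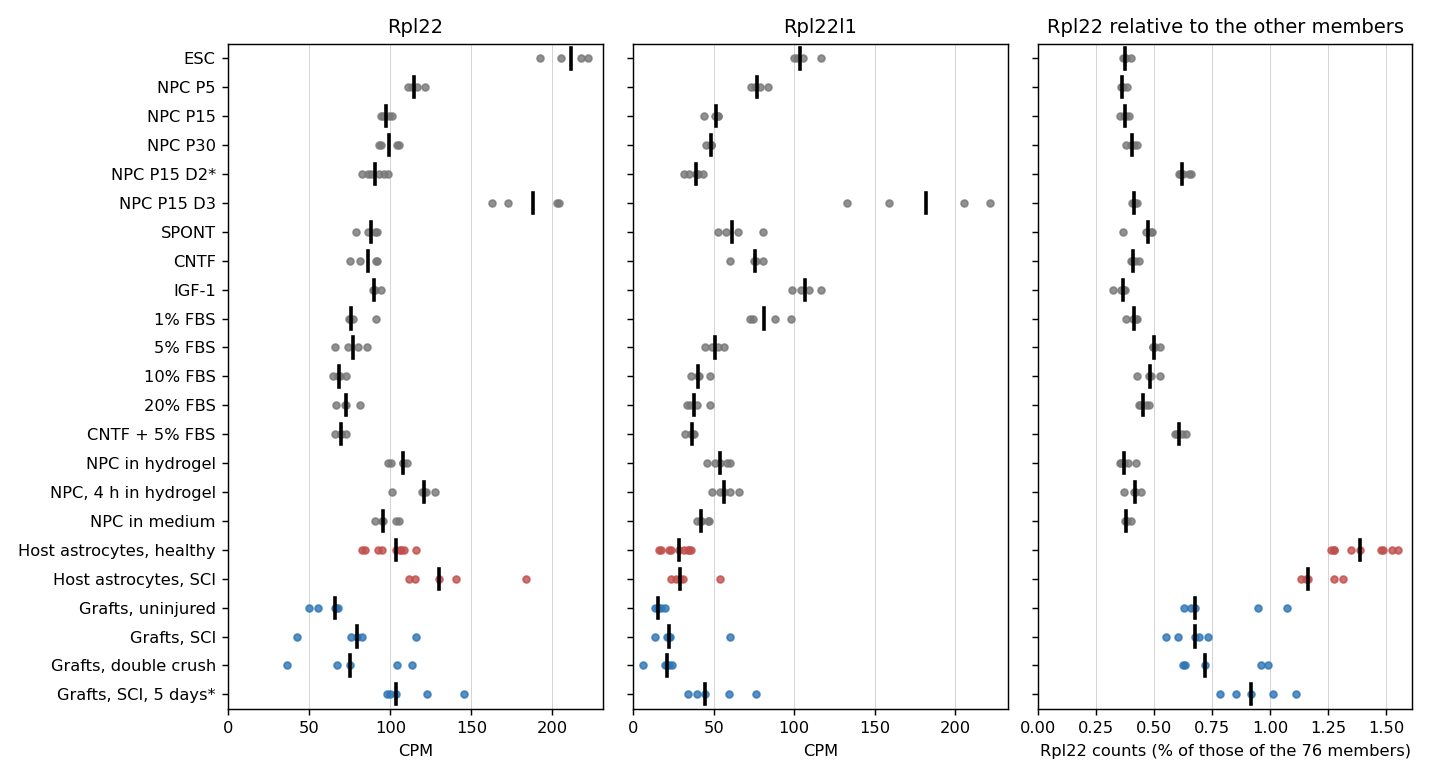
Level of Rpl22 (left, CPM), level of Rpl22l1 (middle, CPM) and Rpl22 counts as a percentage of the counts of the 76 other members (right) in each library, with group medians as bars; host astrocytes are red, grafts blue, cultures grey, and asterisks mark single-read groups. On the right, host libraries lie at 1.13–1.55%, and ESC and NPC P15 at 0.355–0.401%.

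The other pair was *Rps27* and *Rps27l*, of which *Rps27l* is known as a target of p53. *Rps27l* had 0.235, 0.223, 0.232 and 0.232 counts per *Rps27* count in ESC, below all libraries of NPC of every passage and derivation. In NPC P15 the ratio was 0.548, 0.461, 0.578 and 0.521.

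In what follows a gene changed, or was called, when its adjusted p was below 0.01 in edgeR's quasi-likelihood test with Benjamini-Hochberg adjustment over all genes tested. The log2 fold change (log2FC) after TMM scaling is of the first group over the second. All comparisons are drawn in the plot of the 17 comparisons. The share of all genes called is given for the main fits. Counts in other settings, such as with a library left out, are given without it.

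**Figure D4:**
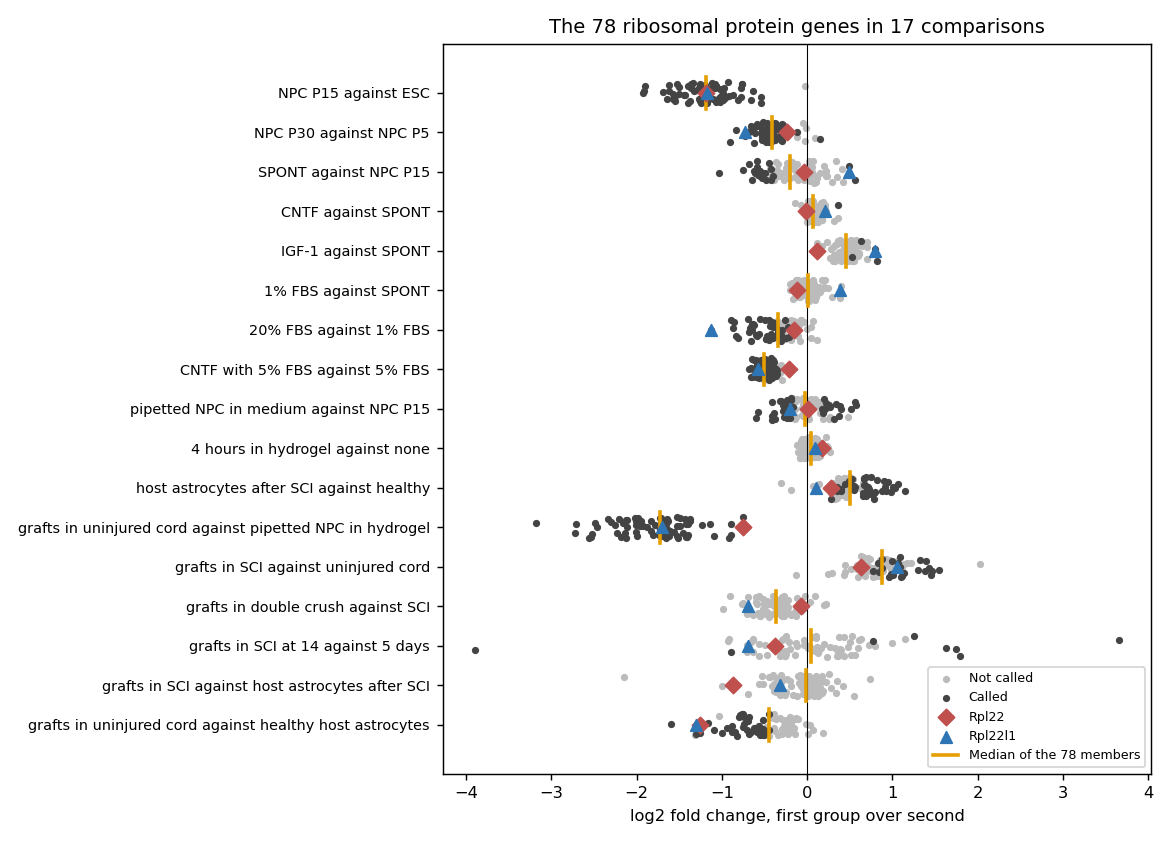
log2FC of each of the 78 members (points) in 17 comparisons (rows), with called members dark, Rpl22 as a red diamond, Rpl22l1 as a blue triangle and the median of the members as a bar. Medians range from −1.72 for grafts in uninjured cord against pipetted NPC to 0.88 for grafts in SCI against uninjured cord.

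The comparison of NPC P15 with ESC spans neural induction, passaging and a change of medium. ESC were kept with serum and leukemia inhibitory factor, so these parts cannot be told apart. In NPC P15, 77 of 78 members were lower and none was higher, with a median log2FC of −1.19. Of all genes tested 67.2% were called in this comparison, 32.2% higher and 34.9% lower, and their median was −0.10. The large subunit had a median of −1.16 and the small subunit of −1.24. *Rps13* fell most, from 426, 380, 399 and 431 CPM in ESC to 106.6, 115.2, 114.6 and 122.1 CPM in NPC P15 (log2FC −1.92, SE 0.06, adjusted p = 1.3e-10). *Rps12* fell from 338–394 CPM to 92.7–115 CPM (−1.91, SE 0.08, adjusted p = 1.2e-09), and *Rps20*, which lies near the mRNA channel, from 659–742 CPM to 184–209 CPM (−1.90, SE 0.05, adjusted p = 7.5e-11). None of these groups overlapped. *Rplp0*, the core of the stalk, fell by 1.16, *Rplp1* by 1.26, *Rplp2* by 1.55 and *Rpsa*, which also serves as a laminin receptor, by 1.07 on the log2 scale. *Rpl22* (−1.19, SE 0.06, adjusted p = 7.3e-09) and *Rpl22l1* (−1.17, SE 0.08, adjusted p = 1.2e-07) lay near the median of the members. *Rps27l* was the exception, at 90.8, 74.9, 75.9 and 73.5 CPM in ESC and 74.2, 75.5, 96.5 and 82.8 CPM in NPC P15 (−0.03, SE 0.10, adjusted p = 0.82). *Rps27* itself fell from 317–387 to 136–167 CPM (−1.22, SE 0.08, adjusted p = 8.0e-08).

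Other parts of the machinery went the same way. Of 30 genes of ribosome assembly and rRNA synthesis, 29 fell and none rose, with a median of −1.12. Of 20 other TOP mRNAs, mostly translation factors, 19 fell and 1 rose, *Vim* of the intermediate filaments. Of 78 mitochondrial ribosomal protein genes, 45 fell and 6 rose, with a median of −0.51. *Mycn*, a transcription factor that drives ribosome synthesis, fell by 4.66, and *Mxd4*, an antagonist of MYC, rose by 4.46 on the log2 scale. The ribosomal protein *Rpl10l*, a retrogene that the rule left out, was at 32.2–40.8 CPM in ESC and had no counts in NPC P15. The size of the fall depended on which NPC group was compared with ESC. With NPC P15 D3 in place of NPC P15, 34 members were called, 32 lower and 2 higher, with a median of −0.26, and *Rpl22l1* (0.66) and *Rps27l* (1.13) turned direction. With the single-read D2, 77 were lower and 1 higher, with a median of −2.12. Derivation and read type cannot be told apart in D2. The part of library handling in the D3 result was not tested.

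NPC P30 and NPC P5 were compared to see whether passaging changed the cells. In NPC P30, 71 members were lower and 1 was higher, against 35.5% of all genes called, 17.5% higher and 18.1% lower. The median of the members was −0.42. *Rps6*, the substrate of S6 kinase, fell from 520, 533, 528 and 522 CPM to 284, 287, 275 and 292 CPM (−0.91, SE 0.03, adjusted p = 3.4e-14). *Rps19* fell from 251–272 to 146–154 CPM (−0.84, SE 0.05, adjusted p = 8.5e-12) and *Rpl22l1* from 73.1–83.7 to 45.0–48.3 CPM (−0.73, SE 0.07, adjusted p = 4.7e-08). *Rplp1* was the member that rose, from 636–709 to 713–801 CPM (0.15, SE 0.04, adjusted p = 0.0047). *Rplp0* (0.10, SE 0.03, adjusted p = 0.012) and *Rpsa* (−0.03, SE 0.03, adjusted p = 0.51) were not called. A single fit of all 23 groups called 22 members, all lower. Of the assembly genes 20 of 30 fell, and of the mitochondrial ribosomal protein genes 39 of 78.

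Growth factor withdrawal gave a mixed picture. In SPONT against NPC P15, 19 members were lower and 2 higher, against 57.2% of all genes called, 29.8% higher and 27.4% lower, and the median was −0.20. *Rpsa* fell from 720, 745, 786 and 800 CPM to 292, 413, 325 and 327 CPM (−1.04, SE 0.11, adjusted p = 8.6e-06). *Rps4x*, encoded on the X chromosome, fell from 236–256 to 112–162 CPM (−0.75, SE 0.12, adjusted p = 0.00017), and *Rps2*, at the mRNA entry, from 460–554 to 241–368 CPM (−0.68, SE 0.13, adjusted p = 0.00084). *Rpl34* rose from 85.5–105 to 110–168 CPM (0.56, SE 0.13, adjusted p = 0.0033). *Rpl22l1* rose from 43.8–52.9 to 52.9–80.5 CPM, with ranges that met (0.49, SE 0.14, adjusted p = 0.0078). Both rises rested on the reference and the scaling: against NPC P5 *Rpl34* was at −0.32 and *Rpl22l1* at −0.14, against D3 at −1.20 and −1.42, and on total counts no member was called higher and 32 were called lower. The assembly genes fell more uniformly, 22 of 30 lower and 1 higher with a median of −0.51. Of 78 mitochondrial ribosomal protein genes 23 rose, near the share of all genes that rose, and 10 fell. *Deptor*, an inhibitor of mTOR, fell by 5.45 on the log2 scale. SPONT replicate 2 held 2.48% of its counts in the 76 members against 1.62, 1.86 and 1.86% in the others, and without it 49 members were called, while leaving out any other library but SPONT replicate 1 gave 10 to 12. NPC P15 D2 as reference turned the median of the members to 0.51, with 54 higher and 2 lower, and D3 moved it to −1.14 with all 78 lower.

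Against SPONT, IGF-1 raised few members past the threshold, although all 78 had a positive log2FC. *Rps12* (110, 123, 141 and 127 CPM, against 66.8, 92.9, 63.1 and 72.3 CPM; 0.81, SE 0.14, adjusted p = 0.0064), *Rpl22l1*, *Rps29* and *Rps27l* rose, 4 of 78 against 6.55% of all genes called, 2.8% higher and 3.75% lower. *Rpl22l1* went from 52.9, 80.5, 57.9 and 65.0 CPM to 98.8, 104, 117 and 109 CPM (0.80, SE 0.14, adjusted p = 0.0064). *Rps29* rose from 175–243 to 269–305 CPM (0.63, SE 0.12, adjusted p = 0.0071), and *Rps27l* from 56.3–65.0 to 77.7–88.1 CPM (0.52, SE 0.09, adjusted p = 0.0058). The median was 0.46, and 75 members had an unadjusted p below 0.05. *Rpl22* had the smallest change of all members, 0.12 (SE 0.07, adjusted p = 0.24), at 89.4–94.2 CPM against 78.6–91.6 CPM. The 30 assembly genes had a median of 0.01 and none was called. The 78 mitochondrial ribosomal protein genes had a median of 0.41, and 4 rose. The count rested on SPONT replicate 2, without which 77 members were called, and any other library left out gave 0. Fitted with all groups, 9 were called, on total counts 7 and with DESeq2 37.

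CNTF raised 1 member against SPONT, *Rps27l*, from 56.3, 57.0, 61.1 and 65.0 CPM to 78.7, 79.2, 77.9 and 67.8 CPM (0.36, SE 0.07, adjusted p = 0.0040), against 19.9% of all genes called, 10.8% higher and 9.15% lower. The median of the members was 0.07. Without SPONT replicate 2, 22 were called, and without SPONT replicate 3 or CNTF replicate 1, 2 or 3, or with all groups in 1 fit, none was. With 1% FBS against SPONT edgeR called no member, 2 had an unadjusted p below 0.05, DESeq2 called 1, and 8.78% of all genes were called, 5.63% higher and 3.15% lower.

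Serum at 20% against 1% lowered 44 members and raised none, with a median of −0.34, against 60.0% of all genes called, 30.4% higher and 29.6% lower. *Rpl22l1* fell most, from 72.8, 74.5, 88.4 and 98.1 CPM in 1% FBS to 39.7, 33.2, 35.2 and 47.4 CPM in 20% FBS (−1.13, SE 0.12, adjusted p = 3.0e-06). It held 44.8–56.6 CPM in 5% FBS and 35.6–47.9 CPM in 10% FBS. *Rps25*, which some viral internal entry sites need, fell from 228–298 to 125–165 CPM (−0.89, SE 0.10, adjusted p = 7.5e-06), and *Rpl39* from 2.69–3.53 to 1.35–1.85 CPM (−0.86, SE 0.16, adjusted p = 0.00038). *Rplp2* fell by 0.67 on the log2 scale, while *Rplp0* (−0.08), *Rplp1* (−0.19), *Rpsa* (−0.07) and *Rpl22* (−0.15) were not called. Of the assembly genes 23 of 30 fell and 2 rose, and *Myc* fell by 1.94 on the log2 scale. In a single fit of all groups 22 members were called, all lower.

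CNTF added to 5% FBS lowered 71 members and raised none, against 23.3% of all genes called, 11.3% higher and 12.0% lower. The median was −0.51 and all 78 were negative. *Rps19* fell from 77.8, 106, 108 and 91.0 CPM to 66.6, 55.0, 63.3 and 66.5 CPM (−0.68, SE 0.10, adjusted p = 0.00071). *Rpl12*, at the base of the stalk, fell from 70.1–95.9 to 47.5–59.2 CPM (−0.65, SE 0.10, adjusted p = 0.00089). *Rpl22* had the smallest fall, at 69.7, 65.9, 69.2 and 72.8 CPM against 66.0, 79.9, 85.4 and 73.6 CPM (−0.21, SE 0.07, adjusted p = 0.038), and was not called. The effect of CNTF with serum was not tested against its effect without serum. Assembly genes fell in 11 of 30 cases and other TOP mRNAs in 8 of 20. Without any 1 replicate of CNTF with 5% FBS 41 to 46 members were called, and without 5% FBS replicate 3, 47. The single fit of all groups called 15, all lower.

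Pipetted NPC in medium against NPC P15 had 16 members higher and 22 lower, against 26.2% of all genes called, 13.2% higher and 13.0% lower, and a median of −0.03. *Rpl37* fell from 294, 348, 356 and 321 CPM to 234, 213, 223, 209 and 204 CPM (−0.60, SE 0.06, adjusted p = 1.1e-07). *Rps27l* (−0.58, SE 0.12, adjusted p = 0.00069) and *Rpl38*, known from translation of Hox mRNAs (−0.42, SE 0.09, adjusted p = 0.00078), fell too. *Rps25* rose from 175–204 to 236–309 CPM (0.58, SE 0.07, adjusted p = 1.8e-06), *Rps13* from 106.6–122.1 to 163–176 CPM (0.56, SE 0.06, adjusted p = 1.8e-07) and *Rps19* from 107.4–151.8 to 173–215 CPM (0.52, SE 0.08, adjusted p = 6.6e-05). Of the 15 libraries of pipetted cells, 14 list genes in another order than the other libraries, and the part of any difference in their handling was not tested. Without NPC P15 replicate 2 or 4, 25 or 24 members were called. The single fit of all groups called 5. With NPC P30 as reference 15 were higher and 1 lower, and with NPC P5 1 higher and 58 lower. All 3 named rises turned with the reference, *Rps25* to −0.43, *Rps13* to −0.41 and *Rps19* to −0.47 against NPC P5, and to −1.35, −0.98 and −0.91 against D3. After 4 hours in hydrogel against none, edgeR called no member and 0.32% of all genes, 0.0436% higher and 0.276% lower. An unadjusted p below 0.05 was found for 13 members, and DESeq2 called 1.

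In host astrocytes, SCI raised 41 members and lowered none, against 41.1% of all genes called, 22.2% higher and 18.8% lower. The median was 0.50, with 0.46 in the large and 0.66 in the small subunit, and 0.02 over all genes. *Rpl17*, at the exit tunnel, rose from 1.43 CPM in the lowest, 2.72 CPM in the median and 4.41 CPM in the highest healthy library to 5.33, 8.75, 5.32, 4.43 and 11.4 CPM (1.15, SE 0.30, adjusted p = 0.0038). *Rpl41*, a very short peptide between the subunits, rose from 83.5, 107.3 and 182.5 CPM by the same measures to 253, 307, 209, 159 and 409 CPM, with overlap (1.06, SE 0.20, adjusted p = 0.00025). *Rpl39* rose from 0.584, 0.894 and 1.47 CPM to 2.23, 2.08, 1.67, 1.79 and 2.91 CPM (1.03, SE 0.27, adjusted p = 0.0036). *Rplp0* showed the change with small error, from 141, 148 and 165 CPM to 260, 317, 248, 240 and 293 CPM (0.68, SE 0.08, adjusted p = 2.5e-06). *Rps27l* (0.91, SE 0.19, adjusted p = 0.00062) and *Rps27* (0.72, SE 0.18, adjusted p = 0.0031) rose together. *Rpl22* (0.28, SE 0.14, adjusted p = 0.091) and *Rpl22l1* (0.10, SE 0.24, adjusted p = 0.74) were not called.

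The mitochondrial ribosomal protein genes did otherwise, with 3 higher, 12 lower and a median of −0.03. Of the assembly genes 4 rose and 2 fell, of other TOP mRNAs 6 rose and none fell, and *Myc* rose by 1.54 on the log2 scale. Markers of several cell types moved as well. All 10 myeloid markers rose, as did 5 of 6 fibroblast (median 2.83), 5 of 8 oligodendroglial, 3 of 3 Schwann cell and 2 of 6 endothelial and mural markers. Of 8 astrocyte markers 5 fell and none rose (median −1.15), and of 7 neuronal markers 3 fell and 1 rose. Their part in the result was not tested. Host SCI replicate 5 was highest in the summed level, and without it 25 members were called, 24 higher and 1 lower; without replicate 2, 26 were. On total counts 69 were called and in the single fit of all groups 65, all higher.

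Grafts in uninjured cord held less of every member than NPC passed through a pipette in hydrogel. All 78 were lower, against 53.7% of all genes called, 28.4% higher and 25.3% lower, with a median of −1.72. *Rpl29* fell from 130, 138, 131, 141 and 125 CPM to 14.7, 29.9, 17.9, 20.2 and 16.0 CPM (−2.72, SE 0.19, adjusted p = 1.5e-07), without overlap. *Rpl17* fell from 6.82–13.9 to 0.819–2.76 CPM (−2.71, SE 0.44, adjusted p = 0.00016) and *Rpl39* from 2.70–8.20 to 0.0351–1.13 CPM (−3.18, SE 0.80, adjusted p = 0.0040), where 3 counts were the lowest. *Rpsa* fell from 782, 924, 870, 972 and 883 CPM to 134, 167, 154, 156 and 130 CPM (−2.55, SE 0.11, adjusted p = 3.3e-09). *Rpl22* fell least of all members, from 111, 100, 108, 108 and 98.5 CPM to 55.3, 66.0, 50.0, 66.4 and 67.4 CPM (−0.75, SE 0.12, adjusted p = 0.00018), followed by *Rplp1* (−0.89, SE 0.14, adjusted p = 0.00012). *Rpl22l1* fell by 1.71 on the log2 scale, near the median.

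Of 30 assembly genes 27 fell and 1 rose, with a median of −1.72, and *Fbl*, which methylates rRNA, fell by 3.06. All 20 other TOP mRNAs fell, with a median of −1.67. Mitochondrial ribosomal protein genes fell in 63 of 78 cases with a median of −0.96, and *Myc* fell by 2.79 on the log2 scale. Markers of several other cell types rose in this comparison. They were all 10 myeloid, 6 of 6 fibroblast, 6 of 6 endothelial and mural, 7 of 7 neuronal (median 7.76) and 3 of 3 Schwann cell markers. Of 8 oligodendroglial markers 6 rose and 2 fell, and of 8 astrocyte markers 6 rose and 1 fell. Their part was not tested.

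Grafts in SCI against uninjured cord had 24 members higher and none lower, against 4.64% of all genes called, 2.09% higher and 2.55% lower. The median was 0.88, with 77 of 78 positive and 73 with an unadjusted p below 0.05. *Rps28* rose from 55.0, 66.4, 35.8, 38.7 and 36.0 CPM to 108, 108, 113, 162 and 72.1 CPM (1.54, SE 0.24, adjusted p = 0.0015). *Rps27l* rose from 20.6, 22.4, 19.2, 22.1 and 14.6 CPM to 41.8, 42.5, 55.2, 72.8 and 15.3 CPM, with overlap (1.46, SE 0.30, adjusted p = 0.0070). *Rps12* rose from 38.5, 39.2, 28.2, 18.1 and 22.5 CPM to 51.5, 75.2, 52.4, 106 and 45.7 CPM (1.45, SE 0.28, adjusted p = 0.0048). *Rplp2* (1.40, SE 0.28, adjusted p = 0.0058), *Rplp1* (1.06, SE 0.22, adjusted p = 0.0078), *Rps27* (0.99, SE 0.20, adjusted p = 0.0061) and *Rplp0* (0.88, SE 0.17, adjusted p = 0.0052) rose too. *Rpl17* had the largest log2FC and was not called (2.03, SE 0.64, adjusted p = 0.048). Nor were *Rpl22* (0.63, SE 0.22, adjusted p = 0.071) and *Rpl22l1* (1.05, SE 0.34, adjusted p = 0.055).

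Assembly genes had a median of 0.06, with 1 of 30 higher, and mitochondrial ribosomal protein genes a median of 0.46, with 4 of 77 higher. None of the 10 myeloid markers was called, with sums of 572–1921 CPM in SCI and 211–1556 CPM in uninjured cord, while 3 of 7 neuronal markers fell. The count moved with single libraries: without grafts in SCI replicate 5, which had the lowest summed level, 51 were called, and any other library left out gave 4 to 18. On total counts 6 were called, with a median of 0.61, while the median of all genes moved by −0.28. In the single fit of all groups 74 were called.

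Whether injury changed the members differently in grafts and in host astrocytes was tested as an interaction (plot of the members after injury). edgeR called 1 of 78, *Rpl23a*, against 16.8% of all genes, 6.11% higher and 10.7% lower, and 11 had an unadjusted p below 0.05. *Rpl23a*, which docks factors at the tunnel exit, was at 25.5, 31.8, 24.9, 25.0 and 36.3 CPM in host astrocytes after SCI and at 24.8, 30.6 and 40.3 CPM in the lowest, median and highest healthy library (−0.31, SE 0.13, adjusted p = 0.051). In grafts it went from 30.2, 37.7, 34.2, 16.5 and 15.8 CPM to 28.6, 46.8, 47.8, 63.9 and 31.5 CPM (0.99, SE 0.29, adjusted p = 0.037). The difference of these effects was 1.25 (SE 0.30, adjusted p = 0.0028). The median of the differences was 0.31, and −0.13 over all genes. The call rested on scaling: on total counts *Rpl23a* kept its direction but was not called (0.84, adjusted p = 0.035). There 1 other member was called lower, and the median of the members was −0.10. That median moved by −0.40, and the median of all genes by −0.42. With DESeq2 size factors the median of the members was 0.37. The single fit of all groups called 7, all higher. The effect of SCI was lower in grafts for 9 of 10 myeloid markers and higher for 5 of 8 astrocyte markers, and their part was not tested. A difference that was not called does not show that the effects were alike.

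**Figure D5:**
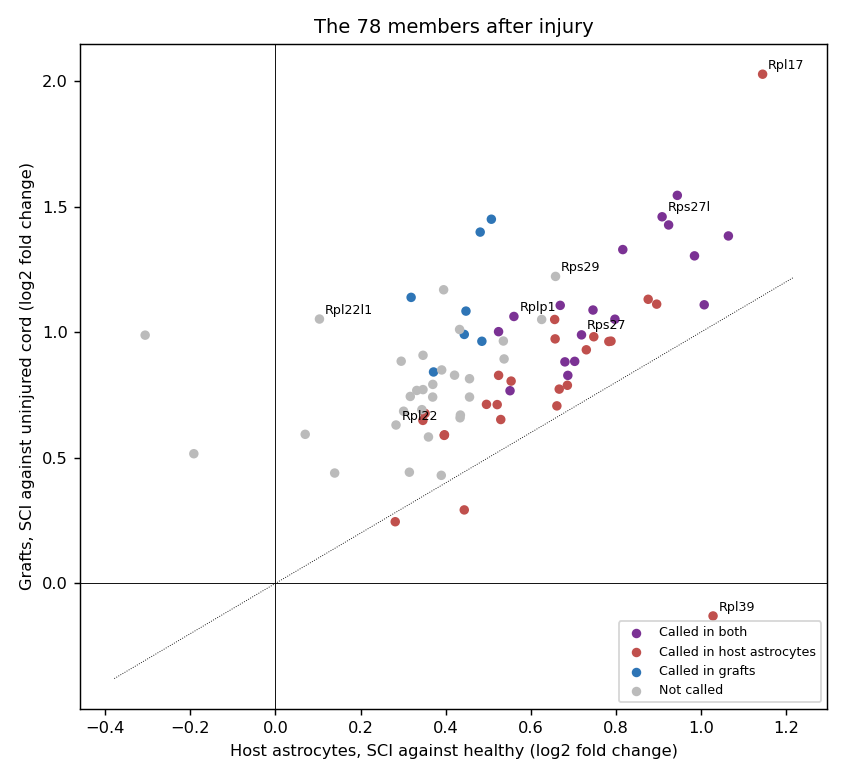
log2FC of each member after SCI in host astrocytes (x axis) and in grafts (y axis), coloured by the comparisons in which it was called; the dotted line marks equal values. All but 3 members lie to the upper right, most above the line, with Rpl17 at 1.15 and 2.03 and Rpl39 at 1.03 and −0.13.

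Double crush against single crush SCI in grafts gave no called member in edgeR and 16 with an unadjusted p below 0.05, against 1.83% of all genes called, 1.29% higher and 0.538% lower. Fitted with all groups, 9 were called, all lower. The median was −0.36, and 74 of 78 were negative. *Rps27l* was at 25.1, 22.8, 25.5, 32.8 and 13.0 CPM after double crush, against 41.8, 42.5, 55.2, 72.8 and 15.3 CPM (−0.99, SE 0.31, adjusted p = 0.064). The 6 fibroblast markers, of which 5 rose, summed to 7272–27546 CPM after double crush and 1248–4032 CPM after single crush, and their part was not tested.

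Grafts at 14 against 5 days in SCI had 6 members higher and 2 lower, against 5.3% of all genes called, 2.72% higher and 2.58% lower. *Rpl21* was at 81.3, 75.3, 86.2, 135 and 40.2 CPM at 14 days and 6.43, 11.0, 10.3, 3.74 and 5.66 CPM at 5 days (3.66, SE 0.35, adjusted p = 0.00017). *Rpl23a* (1.80, SE 0.29, adjusted p = 0.0018) and *Rplp1* (1.74, SE 0.27, adjusted p = 0.0016) were higher, and *Rpl39* (−3.90, SE 0.72, adjusted p = 0.0041) and *Rpl10*, a late joining protein (−0.89, SE 0.15, adjusted p = 0.0028), lower. All 5-day libraries were single-read and all 14-day libraries paired, so time and read type cannot be told apart. Fitted with all groups, 37 members were called.

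Grafts and host astrocytes were last set side by side. In SCI, edgeR called no member and 14.6% of all genes, 6.79% higher and 7.84% lower, and 9 members had an unadjusted p below 0.05. DESeq2 called 4. The median was −0.01. *Rpl22* was at 79.4, 75.5, 82.4, 116 and 42.0 CPM in grafts and 130, 141, 111, 115 and 184 CPM in hosts (−0.86, SE 0.24, adjusted p = 0.017). Fitted with all groups, 11 were called, and on total counts 1. In uninjured cord 36 members were lower in grafts and none higher, against 49.7% of all genes called, 26.5% higher and 23.3% lower, with a median of −0.45. *Rps29* was at 73.0, 67.4, 22.0, 38.3 and 41.3 CPM in grafts and 62.5, 106 and 143 CPM in the lowest, median and highest host library (−1.60, SE 0.28, adjusted p = 1.0e-04). *Rpl22l1* (−1.30, SE 0.21, adjusted p = 4.3e-05) and *Rpl22* (−1.25, SE 0.13, adjusted p = 2.0e-07) were next among the members called, and *Rpl22* did not overlap between the groups. *Rpsa* (0.01, SE 0.08, adjusted p = 0.91) and *Rplp0* (−0.16, SE 0.11, adjusted p = 0.21) were not called. Mitochondrial ribosomal protein genes were lower in 58 of 78 cases and higher in none. Markers of cell types differed as well: 8 of 8 astrocyte and 3 of 3 Schwann cell markers were lower in grafts (medians −2.64 and −2.59), and 10 of 10 myeloid, 7 of 7 neuronal, 5 of 6 fibroblast, 5 of 6 endothelial and mural and 4 of 8 oligodendroglial markers were higher. Their part in the result was not tested. On total counts alone the direction turned, with 11 members higher, 5 lower and a median of 0.11. The median of the members moved by 0.56 there, and that of all genes by 0.55. With DESeq2 size factors 36 members were lower and 0 higher, with a median of −0.44.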

How the data were processed

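The deposited files hold raw read counts per Entrez gene, 1 file per library, which the authors made in Galaxy with Trimmomatic, HISAT2 on mm10 and featureCounts at default settings (versions not given in the sources used here). Counts of paired libraries include both mates. Files were joined on gene ID, since 14 list genes in another order.

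Levels (CPM) are counts scaled to the same total in every library, and FPKM divide them by exon length. Groups were compared with edgeR 4.0.16 (quasi-likelihood test, TMM scaling, filterByExpr with a minimum count of 10) in 17 fits of 2 groups and 1 interaction, adjusted by Benjamini-Hochberg over all genes tested with a threshold of 0.01, in R 4.3.3. SE is the log2FC divided by the square root of F. The code was tested on simulated data. Of genes simulated with a log2FC of 1, 85% were recovered in CNTF against SPONT and 57% in NPC P15 against ESC. For host astrocytes after SCI against healthy it was 70%, for grafts in SCI against uninjured cord 0% and for the interaction 6%. The simulations changed 200 genes picked at random. In the real grafts in SCI against uninjured cord 734 genes were called, 24 of them members. The shares recovered are therefore not those of the members. A member not called there or in the interaction can still have changed by this much. DESeq2 1.42.0, other scalings, filters, thresholds, reference groups and leaving out each library were alternatives. With raw counts, precision follows depth and low members are least certain.

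The members and lists were chosen with earlier results of these data known. Named are *Rpl22*, *Rpl22l1*, *Rps27*, *Rps27l*, *Rplp0*, *Rplp1*, *Rplp2* and *Rpsa*, the 3 largest rises and falls called in each comparison, the 5 widest and 3 narrowest shares, the 3 highest and lowest levels per length, the 3 members most like *Rpl22* and *Rpl22l1*, and up to 2 genes of each other list, less genes not reported here (other ribosomal proteins, other TOP mRNAs, assembly, mitochondrial ribosomal proteins, regulators, p53 targets). Outside this rule, *Rpl15*, *Rpl7a*, the orders over paired-read groups and values of members not called were chosen after their values were seen.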

Additional observations from a re-analysis of the deposited data

Results flagged for a closer look

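In 138 groups of 4 to 9 library values, a library that stood far from the nearest of the others was found in 13, where chance gives about 1 in 20. *Rpl22* was at 91.2 CPM in 1% FBS replicate 4, against 74.7–76.7 CPM in the others. *Rpl22l1* was at 5.99 CPM in double crush grafts replicate 5 (others 19.5–24.0 CPM), 59.9 CPM in grafts in SCI replicate 4 (13.2–22.8 CPM), 53.8 CPM in host SCI replicate 5 (23.2–30.8 CPM) and 45.0 CPM in NPC P30 replicate 1 (48.2–48.3 CPM). The summed level of the 76 members was 1.03% in CNTF with 5% FBS replicate 2 (others 1.17–1.18%), 1.87% in 20% FBS replicate 4 (1.51–1.55%), 0.581% in double crush grafts replicate 5 (1.04–1.14%) and 2.43% in NPC P15 replicate 1 (2.65–2.69%). The ratio of *Rpl22l1* to *Rpl22* counts was 0.516 in grafts in SCI replicate 4 (0.253–0.315). The ratio of *Rps27l* to *Rps27* counts was 0.555 in grafts in uninjured cord replicate 4 (0.311–0.377) and 0.357 in NPC P30 replicate 3 (0.418–0.423). Large subunit counts per small subunit count were 1.54 in pipetted NPC in medium replicate 5 (1.49–1.50).

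The effect of SCI on *Rpl23a* differed between grafts and host astrocytes by 1.25 on the log2 scale, by the interaction in edgeR (SE 0.30, adjusted p = 0.0028). It was the only member called in that test, and on total counts it was not called (0.84, adjusted p = 0.035).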

How the results depend on the processing

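Counts of members called moved by over 1.5 times in 55 alternatives and stayed within it in 123. They are given here in the order in which the comparisons were described. The share of all genes called in the same setting is not given. These counts therefore do not show whether the members moved apart from other genes. With all 23 groups in 1 fit the counts were 22 (P30), 0 (CNTF), 9 (IGF-1), 22 (20% FBS), 15 (CNTF with 5% FBS), 5 (medium), 65 (host SCI), 74 (grafts in SCI), 9 (double crush), 37 (14 against 5 days), 11 (grafts against hosts in SCI) and 7 (interaction). On total counts they were 32 (SPONT), 7 (IGF-1), 69 (host SCI), 6 (grafts in SCI), 1 (grafts against hosts in SCI) and 16 (uninjured). At adjusted p below 0.05 they were 38 (SPONT), 2 (CNTF), 52 (IGF-1), 1 (1% FBS), 2 (4 hours), 62 (host SCI), 65 (grafts in SCI), 18 (14 against 5 days), 3 (grafts against hosts in SCI) and 4 (interaction). With DESeq2 they were 2 (CNTF), 37 (IGF-1), 1 (1% FBS), 1 (4 hours), 61 (grafts in SCI), 15 (14 against 5 days) and 4 (grafts against hosts in SCI). IGF-1 had 9 with no filter, and 1% FBS had 1 with a stricter filter. The cause of these moves was not tested. The ratio of ESC to host levels was 5.77 with TMM and 5.92 with DESeq2 factors.

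Replicate numbers did not pair the libraries, with r of same-numbered deviations from −0.18 to 0.25 and no comparison with all r over 0.1. With the replicate number as a block, counts were 0 (CNTF), 0 (IGF-1), 42 (CNTF with 5% FBS), 21 (medium), 9 (host SCI), 8 (grafts in SCI), 2 (14 against 5 days), 12 (uninjured grafts against hosts) and 0 (interaction), and other counts stayed within 1.5 times.

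Other references moved more. For ESC, NPC P15 D3 gave 34, with *Rpl22l1* at 0.66 and *Rps27l* at 1.13. For SPONT, counts were 45 (P5), 12 (P30), 56 (D2) and 78 (D3). D2 turned the median to 0.51, *Rps27* to 0.68, *Rps27l* to 0.44, *Rplp0* to 0.51, *Rplp1* to 2.48, *Rpsa* to 0.28, *Rps4x* to 0.056 and *Rps2* to 0.44. P5 turned *Rpl22l1* to −0.14 and *Rpl34* to −0.32, and D3 *Rpl22l1* to −1.42, *Rplp2* to −0.94 and *Rpl34* to −1.20. For medium, counts were 59 (P5), 16 (P30), 69 (D2) and 78 (D3). P30 turned the median to 0.068. D2 turned the median to 0.85, *Rps27* to 0.82, *Rps27l* to 0.26, *Rplp1* to 2.94, *Rpl37* to 0.86 and *Rpl38* to 0.11. P5 turned *Rplp2* to −0.31, *Rps25* to −0.43, *Rps13* to −0.41 and *Rps19* to −0.47. D3 turned *Rpl22* to −0.99, *Rplp0* to −0.30, *Rplp2* to −0.89, *Rpsa* to −0.36, *Rps25* to −1.35, *Rps13* to −0.98 and *Rps19* to −0.91. For grafts against hosts in uninjured cord, total counts turned the median to 0.11, *Rplp0* to 0.39 and *Rplp1* to 0.037. They also turned the median of the interaction to −0.10, and that of 14 against 5 days to −0.10. For grafts against hosts in SCI they moved it from −0.01 to 0.06.

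With each library left out in turn, counts ranged over 77–77 (ESC), 68–71 (P30), 10–49 (SPONT), 0–22 (CNTF), 0–77 (IGF-1), 0–4 (1% FBS), 30–58 (20% FBS), 41–76 (CNTF with 5% FBS), 24–40 (medium), 0–0 (4 hours), 25–51 (host SCI), 77–78 (grafts against NPC), 4–51 (grafts in SCI), 0–1 (double crush), 4–11 (14 against 5 days), 0–2 (grafts against hosts in SCI), 30–44 (uninjured) and 1–5 (interaction). SPONT replicate 2 gave the high end for SPONT, CNTF, IGF-1 and 1% FBS, and grafts in SCI replicate 5 for grafts in SCI, double crush and 14 against 5 days. Of the values of named members, 1660 stayed called or stayed not called in these fits, 133 lost and 22 gained the call. In other settings 1612 stayed called or stayed not called, 76 lost and 66 gained the call, and 32 turned direction with a call in either fit. Values called in neither fit could turn direction and were not counted as turned. Depth limits *Rpl39* most, with single-digit counts in 4 graft libraries.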

Other observations

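Of 11 proteins and paralogs of the cytosolic ribosome that the symbol rule leaves out (*Rack1*, *Fau*, *Rps3a1*, *Rpl36al* and others), 10 fell from ESC to NPC P15 and none rose. Of all genes 34.9% fell there. All 8 tested fell with CNTF in 5% FBS, against 12.0% of all genes. In grafts of uninjured cord against pipetted NPC 7 of 8 fell, against 25.3% of all genes. With IGF-1 against SPONT none of 9 was called, against 6.55% of all genes. In pipetted NPC in medium 1 of 8 rose and none fell, against 13.2% of all genes higher and 13.0% lower. In host astrocytes after SCI 3 of 9 rose, against 22.2% of all genes, with *Rack1*, a signalling scaffold on the small subunit, at 1.00 and *Fau* at 0.71. In grafts, SCI raised 3 of 8, against 2.09% of all genes, with *Fau* at 1.26 and *Rpl36al* at 1.25.

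Of 16 genes of mTOR and MYC signalling, 10 fell and 3 rose in SPONT against NPC P15. Of all genes 27.4% fell and 29.8% rose there, and *Eif4ebp1*, a brake on cap-dependent translation, fell by 2.64 on the log2 scale. In pipetted NPC in medium 8 of the 16 fell and none rose, against 13.0% of all genes lower and 13.2% higher. In grafts of uninjured cord against pipetted NPC 6 fell and 2 rose, against 25.3% of all genes lower and 28.4% higher. With 20% against 1% FBS, *Deptor* rose by 3.64. With IGF-1 against SPONT, *Rheb*, which activates mTOR, was the 1 called, at 0.33, against 6.55% of all genes called.

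Of 14 p53 target and pathway genes, 9 rose and 4 fell from ESC to NPC P15, against 32.2% of all genes higher and 34.9% lower. *Fas* at 7.28 and *Eda2r* at 3.63 led the rises. From NPC P5 to P30 9 fell and none rose, against 18.1% of all genes lower and 17.5% higher. In SPONT against NPC P15 11 fell and 2 rose, against 27.4% of all genes lower and 29.8% higher. In pipetted NPC in medium 10 fell and 1 rose, against 13.0% of all genes lower and 13.2% higher. With 20% against 1% FBS 7 rose and none fell, against 30.4% of all genes higher and 29.6% lower. In host astrocytes after SCI 7 rose and 1 fell, against 22.2% of all genes higher and 18.8% lower. There *Bbc3*, a promoter of cell death, was at 2.51 and *Eda2r* at 2.26.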
